A study of Rattus norvegicus with 21 samples.

Results

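The 33 transcripts described here were higher in macrophages than in microglia of the rat brain in both sample sets of a stroke study, and they were chosen by these measured levels out of 30404 Ensembl transcripts. Levels are in CPM, the expected count of a transcript scaled to a library total of 1000000. A transcript was taken where the group mean plus 1 was at least 15 in the macrophages and at least 4 times that of both microglia groups of the same set, in both sets. Of all rows, 318 met this rule in the 24h set and 39 did so for 7D. The 33 that met it in both were 10.4% of the first list and 84.6% of the second. Because these levels chose the members, the excess of macrophages over microglia is described below without a test.

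Adult rats, whose strain the labels spell Winstar, had the middle cerebral artery blocked for 90 min and then reopened (MCAO), a model of ischaemic stroke, or a sham operation that tied the external carotid artery without blocking the middle cerebral artery. Cells of the operated side were sorted on CD11b and CD45. The groups, named by library title, are MO (MCAO, CD11b+ CD45high, called blood-derived macrophages), Mg (MCAO, CD11b+ CD45low, called microglia) and SH (microglia after sham operation), with 3 libraries each in a set without a prefix, here the 24h set, and 4 each in a set with the prefix 7D, 21 libraries in all. There are no macrophages from sham animals. The labels call the replicates biological but do not tie libraries to animals or say whether animals were pooled, so the spread behind each p-value is that between libraries and may be technical.

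The labels conflict with the titles in ways that touch every value below. In the 24h set, the cell fraction fields of Mg replicate 3 and MO replicate 3 are the reverse of their titles. In the 7D set, the treatment field of all libraries reads 24 h, and the source name and cell fraction of the MO libraries are those of microglia. The sham libraries have a treatment field that names a PBS injection. Set and time after the operation therefore cannot be told apart, and the gate of the 7D macrophages rests on the titles alone. With 24h Mg and MO replicate 3 exchanged, as the cell fraction field has them, and all 7D libraries grouped by title, 0 transcripts met the rule. Without the 2 disputed libraries of the 24h set, 32 transcripts met it, all of them among the 33.

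Microglia are the resident macrophages of the brain and settle there before birth. After a stroke, monocytes enter from the blood and become macrophages in the injured tissue. Both cell types carry CD11b, and the lower CD45 of resting microglia is commonly used to separate them, although microglia can raise CD45 when activated. Gates of this kind can also hold neutrophils, which carry both proteins.

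The members have no gene names here. The files pair none of the transcript identifiers with a name, and 0 of them were found in the RefSeq table of 47357 rat genes. Marker lists for macrophages, neutrophils, microglia and other cells could therefore not be applied, and the labelled cell types could not be checked against their defining markers. Members are called below by the annotated length of the transcript in nucleotides (nt), which differs for each of the 33. The pair furthest above the rule's limits were ENSRNOT00000076191 (856 nt) and ENSRNOT00000074757 (418 nt). From 24h to 7D macrophages, ENSRNOT00000045532 (11546 nt) and ENSRNOT00000057585 (8061 nt) had the largest fitted falls, the second by a margin that does not separate it from the next members. The only named genes in the files, Chi3l1 (a secreted chitinase-like protein of activated glia and macrophages) and Nos2 (inducible nitric oxide synthase), met the rule in the 24h set only.

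Total expected counts were 6923630 to 9668961 per library in the 24h set and 11115359 to 15401910 for 7D. Every MO library had an expected count above 0 for all 33 members, and the microglia libraries for 31 to 33 of them. The members were 418 to 16326 nt long with a median of 2994 nt, against 2350 nt for the 7144 transcripts at or above a level of 15 in both macrophage groups. RSEM divides reads that fit several transcripts, which leaves counts that are not whole. In 23 of the 33 members (69.7%) the count was whole (within 0.001) in all libraries, against 76.2% of those 7144 transcripts.

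Some members share reads with each other or with other transcripts, so that they are not separate measurements. The counts of the 856 nt and 418 nt transcripts summed to a whole number (within 0.011, since deposited counts are rounded) in 16 of the 18 libraries in which they were not whole. Those of the 8061 nt and 8256 nt transcripts did so in 21 of 21. The 11546 nt transcript did so with a 3440 nt transcript outside the 33 in 14 of 18 libraries, and the 4757 nt transcript with a 4540 nt one in 11 of 11. For these members the sum with the partner also met the rule. The 3339 nt and 1263 nt transcripts were not whole in 19 and 20 libraries, and their best candidate gave a whole sum in 6 and 4 of these, so no partner was assigned. The sum of the 1263 nt transcript with its candidate did not meet the rule. How RSEM divided the reads inside a pair cannot be checked from the files.

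Together the 33 transcripts made up a larger part of the RNA in 24h macrophages than in any other group. Their summed level was 11868, 7460 and 14145 CPM in the 3 MO libraries of the 24h set. It was 1629, 2691, 1443 and 2702 CPM in the 4 MO libraries of the 7D set. In Mg the sum was 635, 246 and 463 CPM in the 24h set and 266, 315, 200 and 142 CPM for 7D. In SH it was 194, 180 and 221 CPM, and 412, 343, 245 and 335 CPM. The MO libraries of either set thus lay above all microglia libraries, while Mg lay above SH in the 24h set and these groups overlapped in the 7D set. In sorted bulk samples, a change in the share of cells that carry a transcript and a change in RNA per cell cannot be told apart.

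**Figure D1:**
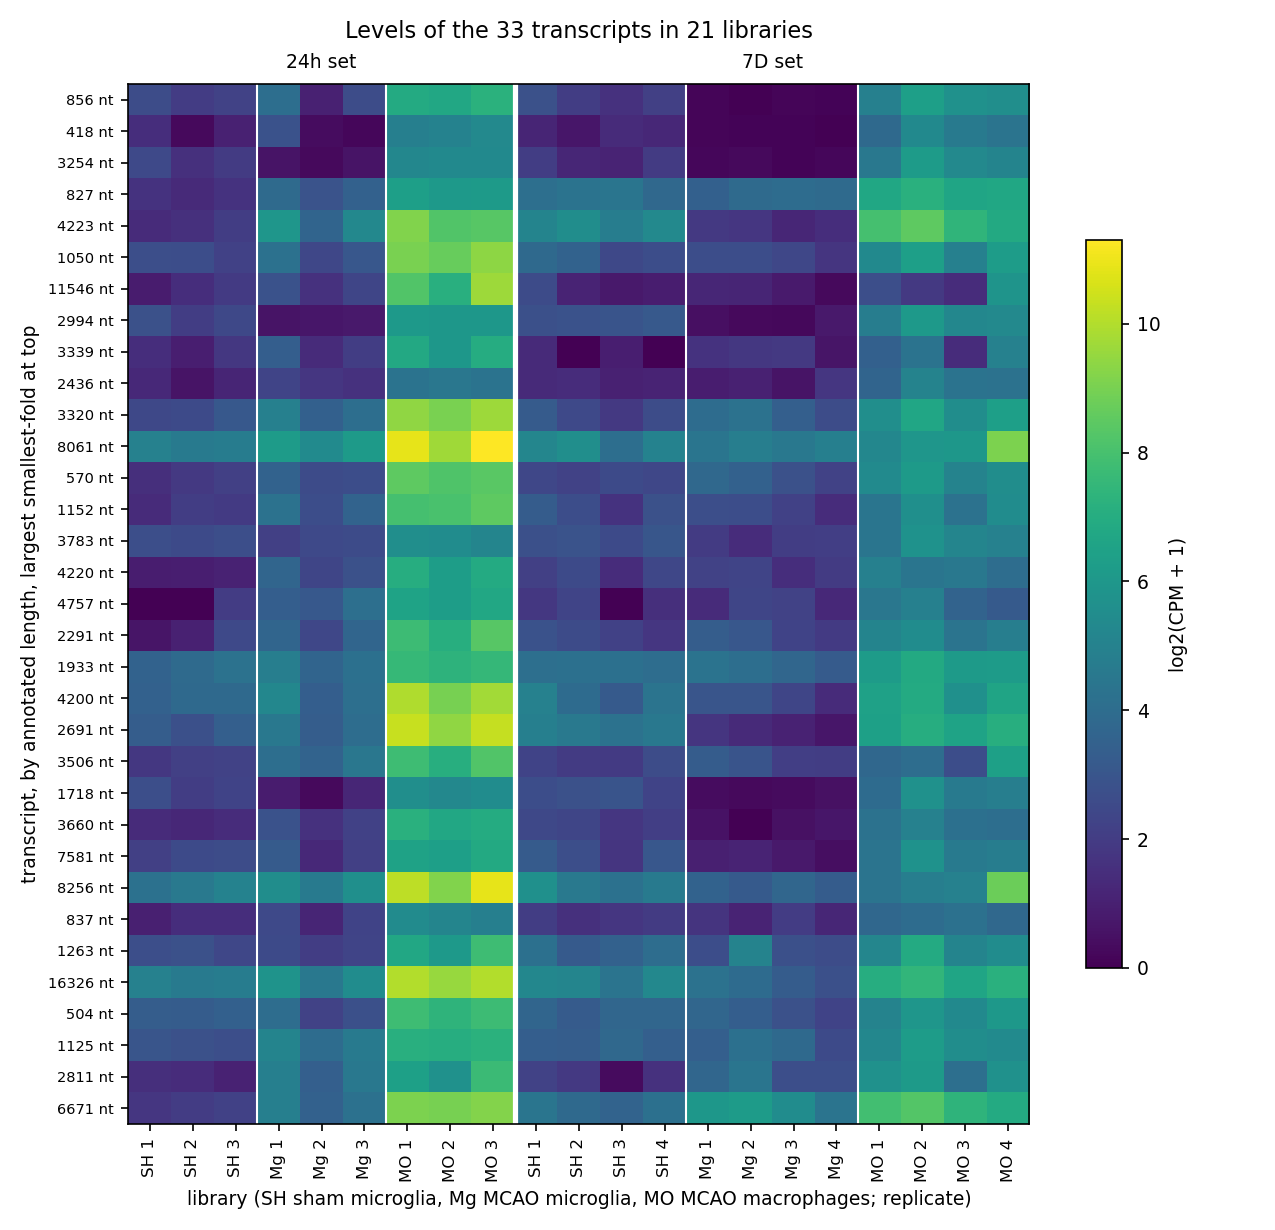
Level of each of the 33 transcripts (rows, by length) in each of the 21 libraries (columns, by group and replicate), as log2(CPM + 1), where brighter is higher. The MO columns are the brightest of each set, the 24h MO columns more than the 7D ones, and the 7D Mg columns are darkest for a few rows such as the 856 nt, 418 nt and 3254 nt transcripts.

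Most members stood only a little above the rule's limits. The smallest of a member's 4 ratios (MO over Mg and MO over SH, in each set, each mean plus 1) ranged from 4.06 to 11.5 with a median of 4.99, and 17 of the 33 were under 5. The nearest transcripts outside had 3.84 and 3.83, and 28 lay between 3 and 4. The lowest macrophage level of a member was 15.6, and the highest of a transcript that failed on level alone was 14.0. The tightest ratio was MO over SH in the 7D set for 21 members, MO over Mg in the 7D set for 9, MO over Mg in the 24h set for 2 and MO over SH in the 24h set for 1. Among the members, the tightest ratio thus lay mostly in the 7D set, and there mostly over the sham microglia. This does not show what kept other transcripts out. Of the 285 transcripts that met the rule in the 24h set only, 162 had a 7D macrophage level below the rule's minimum. How many of these also missed a ratio was not counted.

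Microglia kept a measurable level of nearly all members. Mean Mg levels were 0.979% to 17.6% of the MO level in the 24h set (median 4.21%) and 0.144% to 24.3% for 7D (median 11.7%). SH levels were 0.436% to 12.6% of MO in the 24h set and 4.06% to 23.6% for 7D. In the 24h set every MO library was above every microglia library for 33 of 33 members, as it was for 12% of all 30404 rows. In the 7D set this held for 27 of 33 and for 3.54% of all rows. Since the rule used these contrasts, nothing is read from the counts. The 6 members whose libraries overlapped in the 7D set were those of 2811, 3339, 3506, 8061, 8256 and 11546 nt.

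Compared per length, in TPM (transcript level per length, scaled to a fixed total), the 570 nt transcript had the highest level in 24h MO, at 1112 ± 128 TPM (SD, n = 3). The 1050 nt transcript was next at 833 ± 212 TPM, followed by the 504 nt transcript at 802.5 ± 140.2 TPM and the 2691 nt transcript at 597 ± 191 TPM, and these 3 lay within their spread of each other. In 7D MO the 827 nt transcript was highest, at 236 ± 43.3 TPM (SD, n = 4), with the 504 nt transcript at 206 ± 61.8 TPM and the 570 nt transcript at 164 ± 58.2 TPM. These levels in 7D MO lay within their spread of each other. The lowest were the 2436 nt transcript in 24h MO (11.9 ± 0.79 TPM) and the 11546 nt transcript in 7D MO (1.92 ± 3.06 TPM).

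The transcript ENSRNOT00000076191 (856 nt) was at 120, 107 and 149 CPM in 24h MO and 29.5, 82.4, 51.1 and 47.0 CPM in 7D MO. In 24h Mg it was at 15.7, 1.04 and 5.11 CPM, and in 24h SH at 5.18, 3.01 and 3.72 CPM. In 7D SH it was at 6.08, 3.11, 2.09 and 3.35 CPM, and in 7D Mg at 0.125, 0, 0.107 and 0.0698 CPM. The transcript was thus nearly missing from 7D microglia after stroke while sham microglia held it. The transcript ENSRNOT00000074757 (418 nt), which shares reads with it, was at 28.5, 30.9 and 38.7 CPM in 24h MO and 13.6, 40.4, 23.4 and 19.2 CPM in 7D MO. In 7D Mg it was at 0.107, 0.0755, 0.0697 and 0 CPM, against 1.25, 0.594, 1.58 and 1.42 CPM in 7D SH, with no overlap.

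In 7D Mg these are very small counts. Over the 4 libraries, 3.83 expected counts of the 856 nt transcript and 3.17 of the 418 nt transcript were found, against 179 and 57.8 in 7D SH. At equal depth, SH exceeded Mg 49.5-fold (95% exact interval 18.2 to 175.5) and 19.3-fold (6.66 to 102). These intervals cover counting error only.

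**Figure D2:**
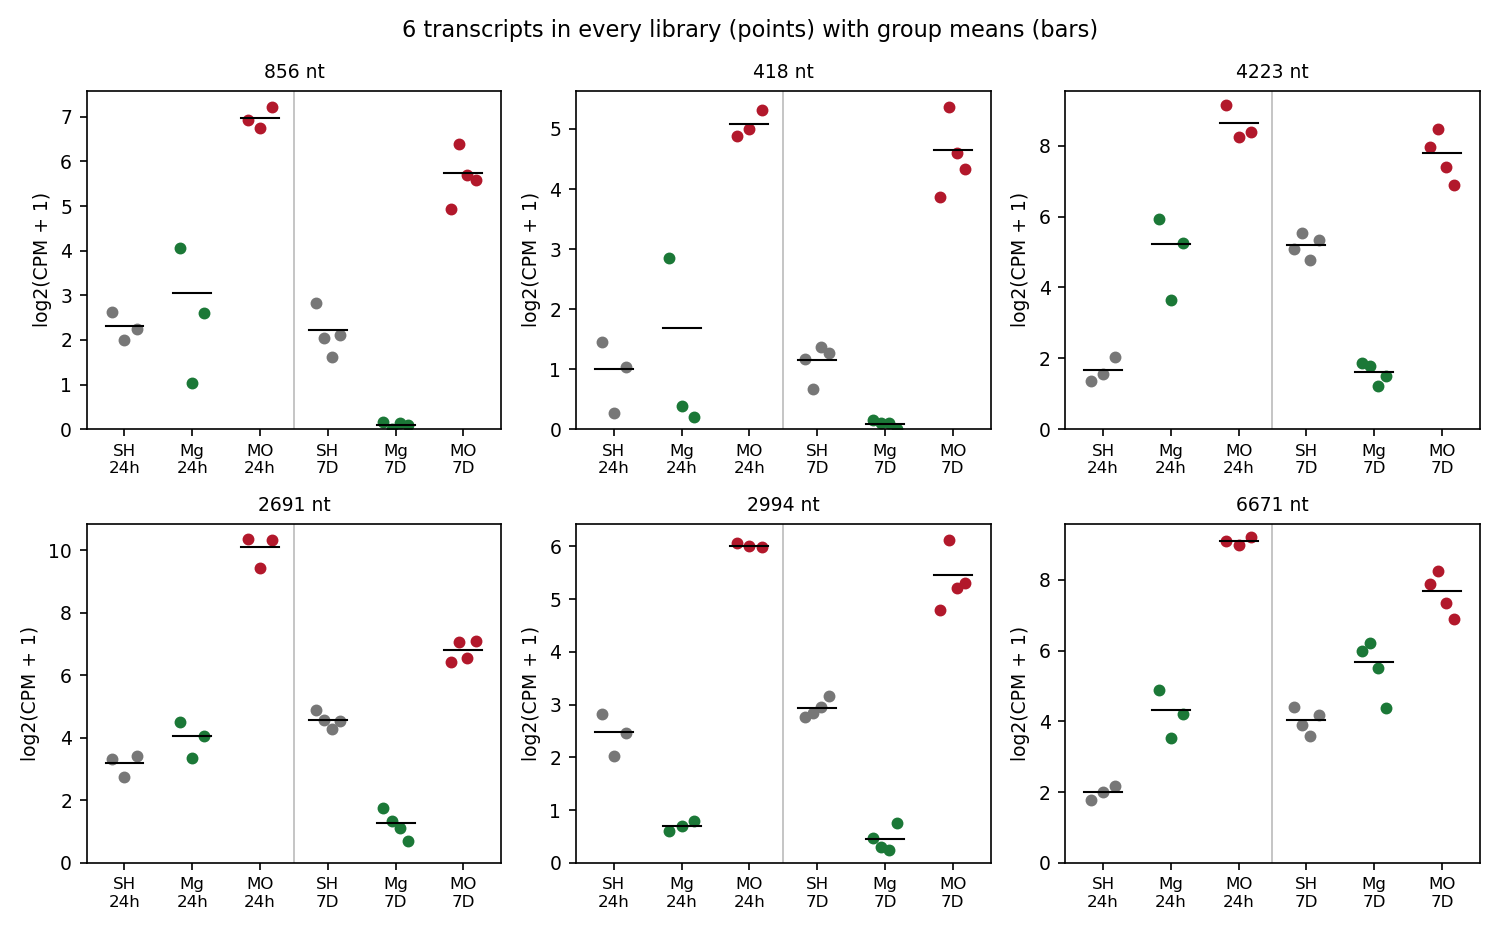
Levels of 6 members as log2(CPM + 1) in every library (points, by group) with the group mean of CPM on the same scale (bars), 24h set left and 7D set right of the line. The MO points are the highest of each panel and set. For the 4223 nt transcript all Mg points (green) are above SH (grey) in the 24h set and below it for 7D. The 2691 nt transcript has this order in its means, but its Mg and SH points overlap in the 24h set.

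The rule compares macrophages with each microglia group but never the microglia groups with each other, so MCAO and sham microglia could be tested. The rule does put the same ceiling on both. In the 24h set, 15 of the 33 members were higher in Mg than in SH and 3 were lower (edgeR quasi-likelihood test, Benjamini-Hochberg adjusted p under 0.05 over 13081 transcripts). Of all transcripts tested, 45.5% were called, 24.8% higher and 20.7% lower. The members' median log2 fold change was 1.26, against 0.00 over all transcripts. In the 7D set, 4 members were higher in Mg and 12 were lower, where 46.2% of 13384 transcripts were called, 22.9% higher and 23.2% lower. The median of the members there was -0.40, against -0.03. All 33 passed the filter on low counts in both sets, to which the macrophage libraries counted. Without macrophage libraries in the fit 32 were tested in each set. In the 24h set 16 were higher and 3 lower, where 3078 of 12401 transcripts were higher and 2835 lower. For 7D 3 were higher and 12 lower, where 2781 of 12865 transcripts were higher and 2604 lower.

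Over both sets, 4 members were higher in Mg each time, 3 were lower each time, and 2 were higher in the 24h set but lower for 7D. A further 9 were higher in the 24h set alone and 7 lower in the 7D set alone, and 8 passed the threshold in neither. The share of all transcripts with each pattern was not computed, so nothing is read from these counts.

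**Figure D3:**
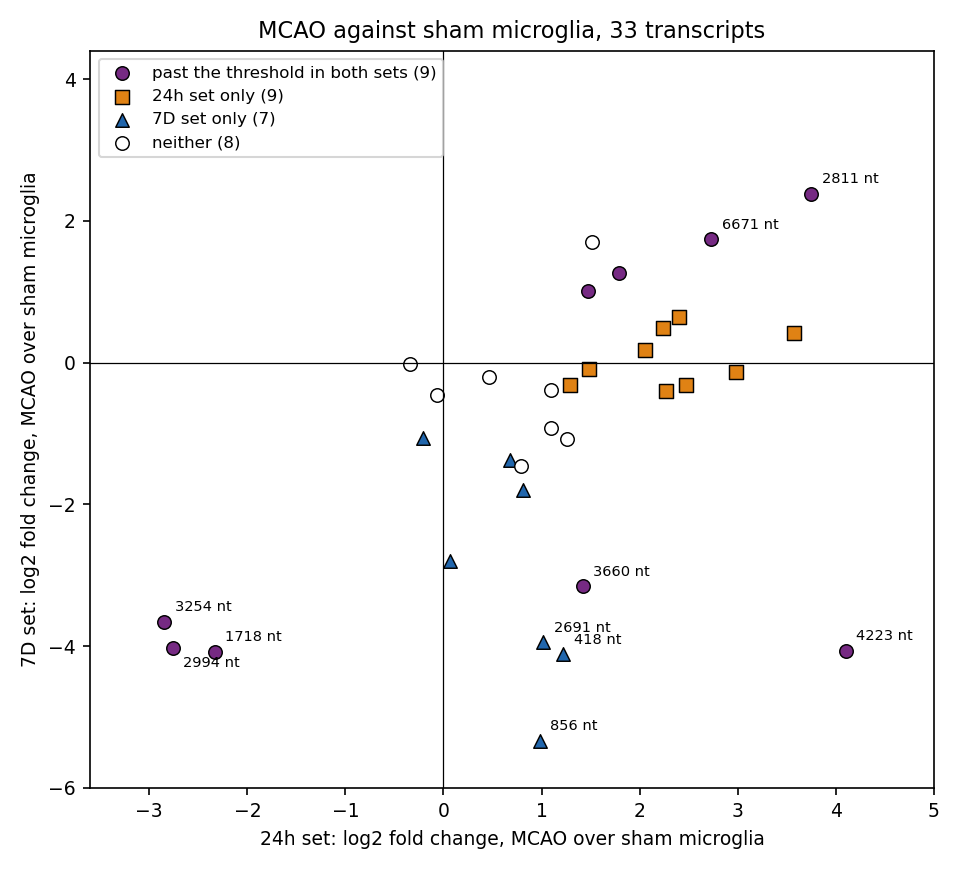
Log2 fold change of MCAO over sham microglia for the 33 transcripts, 24h set on the horizontal and 7D set on the vertical axis, with the symbol showing in which set edgeR's adjusted p was under 0.05. The 3254 nt, 2994 nt and 1718 nt transcripts lie low in both sets, the 2811 nt and 6671 nt transcripts high in both, and the 4223 nt transcript at 4.11 and -4.06 on the 2 axes.

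The members that were higher in stroke microglia in both sets were those of 570, 2811, 3320 and 6671 nt. The 6671 nt transcript was at 28.5, 10.6 and 17.5 CPM in 24h Mg and 2.46, 2.96 and 3.52 CPM in 24h SH (log2 fold change 2.73, SE 0.365, edgeR adjusted p = 0.000455). Its 7D levels were 61.9, 73.5, 44.3 and 19.6 CPM in Mg and 20.2, 13.7, 11.1 and 17.3 CPM in SH (1.74, SE 0.396, adjusted p = 0.00373). Groups did not overlap in the 24h set but did for 7D, where Mg replicate 4 lay among the sham libraries. The 2811 nt transcript was at 28.6, 9.72 and 22.1 CPM in 24h Mg and 1.88, 1.68 and 1.13 CPM in 24h SH (log2 3.75, SE 0.779, edgeR adjusted p = 0.00441, or 0.11 with limma-voom). The 7D levels were 12.5, 19.8, 5.65 and 5.51 CPM in Mg and 3.62, 2.71, 0.256 and 2.07 CPM in SH (2.38, SE 0.63, adjusted p = 0.00888, or 0.071 with limma-voom). Its microglia libraries did not overlap in either set. For the other 2 the 7D difference was near the threshold, at log2 1.01 (adjusted p = 0.0419) for the 570 nt and 1.27 (adjusted p = 0.032) for the 3320 nt transcript. The first call was lost without 7D Mg replicate 1 or 2 or SH replicate 1, 2 or 4 (adjusted p up to 0.14), and the second without Mg replicate 1 or 2 or SH replicate 2, 3 or 4 (up to 0.099). The count of 4 was 2 without Mg replicate 1 or 2 or SH replicate 2 or 4.

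The members that were lower in stroke microglia in both sets were those of 3254, 2994 and 1718 nt. The 2994 nt transcript was at 0.518, 0.621 and 0.734 CPM in 24h Mg, against 6.07, 3.09 and 4.50 CPM in 24h SH (log2 -2.76, SE 0.283, edgeR adjusted p = 0.000115). Levels in the 7D set were 0.387, 0.227, 0.176 and 0.698 CPM in Mg, against 5.76, 6.12, 6.74 and 8.01 CPM in SH (-4.03, SE 0.417, adjusted p = 1.51e-05). Mg and SH were far apart in both sets and no library of one group reached the other. The log2 fold changes of the 3254 nt transcript were -2.85 (SE 0.398) in the 24h set and -3.65 (SE 0.645, adjusted p = 0.000742, or 0.078 with limma-voom) for 7D. Those of the 1718 nt transcript were -2.33 (SE 0.428) and -4.08 (SE 0.481). In 24h MO these 3 were at 36.5 to 40.7, 62.5 to 65.7 and 38.3 to 46.8 CPM in the order given, each within a narrow range.

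Stroke and sham microglia changed places between the sets for the 4223 nt transcript. It was at 1.59, 1.93 and 3.10 CPM in 24h SH and 60.3, 11.5 and 37.3 CPM in 24h Mg. In the 7D set SH was at 32.8, 45.3, 26.3 and 39.5 CPM and Mg at 2.63, 2.42, 1.32 and 1.81 CPM. The groups did not overlap in either set, with Mg the higher in one and SH in the other. Mg over SH was 4.11 on the log2 scale in the 24h set (SE 0.677, edgeR adjusted p = 0.00138; 3.51 without Mg replicate 1) and -4.06 for 7D (SE 0.374, adjusted p = 6.55e-06). The difference of these differences was -8.15 (SE 0.76, adjusted p = 1.5e-05). Sham microglia themselves were higher in the 7D set, by 4.08 (SE 0.574, adjusted p = 0.0011, or 0.068 with limma-voom). In MO the transcript was at 570, 302 and 330 CPM at 24h and 248, 356, 168 and 117 CPM at 7D, which overlapped.

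The 3660 nt transcript had the same order at lower levels. It was at 6.22, 2.07 and 3.62 CPM in 24h Mg against 1.59, 1.42 and 1.69 CPM in SH (log2 1.42, SE 0.405, edgeR adjusted p = 0.0188). Its 7D levels were 0.465, 0, 0.436 and 0.628 CPM in Mg against 4.53, 4.22, 2.48 and 3.33 CPM in SH (-3.15, SE 0.489, adjusted p = 0.0003). The 2691 nt transcript was at 21.9, 9.10 and 15.7 CPM in 24h Mg and 8.96, 5.67 and 9.71 CPM in SH, a difference that missed the threshold (1.02, SE 0.392, adjusted p = 0.0609). It passed in 5 of 15 other settings, with adjusted p from 0.0019 (replicate block) to 0.043 (no macrophage library in the fit). The block joins libraries by number, although Mg and SH libraries of the same number were not taken as paired. The 7D levels were 2.40, 1.51, 1.15 and 0.628 CPM in Mg and 28.6, 22.6, 18.3 and 21.9 CPM in SH (-3.95, SE 0.307, adjusted p = 1.9e-06). Every 7D sham library thus lay above every 7D Mg library, with the reverse order of means in the 24h set.

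For the first-named pair, the sign of the 24h difference depended on a single library. For the 856 nt transcript Mg over SH was 0.98 on the log2 scale in the 24h set (edgeR adjusted p = 0.303), and -0.32 without Mg replicate 1. For the 418 nt transcript, at 6.25, 0.307 and 0.152 CPM in Mg and 1.75, 0.211 and 1.06 CPM in SH, it was 1.22 (adjusted p = 0.406), and -2.03 without that library. In the 7D set both were lower in Mg, by log2 -5.33 (SE 0.669, adjusted p = 6.36e-05) and -4.12 (SE 0.705, adjusted p = 0.000602, or 0.051 with limma-voom).

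Interactions compare Mg over SH between the sets. In 7 of the 33 members it was lower in the 7D set and in 0 higher, where 2.18% of 14252 transcripts were called, 0.470% higher and 1.71% lower. At an unadjusted p under 0.05, 17 members passed. The share over all transcripts at that limit was not computed, so nothing is read from this count. Without Mg 24h replicate 2, 13 members were lower at the adjusted threshold, where 262 of 14619 transcripts were. The 7 were those of 827, 856, 2691, 3660, 4220, 4223 and 16326 nt. After the 4223 nt transcript, the largest differences were -6.27 for the 856 nt (SE 1.22, edgeR adjusted p = 0.00879, or 0.28 with limma-voom; -4.99 without Mg 24h replicate 1) and -4.95 for the 2691 nt transcript (SE 0.522, adjusted p = 6.08e-05).

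Between the sets, most members fell in macrophages, whose mean levels in both sets the rule had used. From 24h MO to 7D MO, 23 of the 33 fell and 1 rose, where 41.5% of 14252 transcripts were called, 21.4% higher and 20.0% lower. The median log2 fold change of the members was -1.88, against 0.00 over all transcripts. The 3 libraries of the 24h set and the 4 of the 7D set did not overlap for 23 members that were lower and 1 that was higher. The share of all transcripts without such overlap was not computed, so nothing is read from these counts of non-overlap. The ratio of mean levels, 24h over 7D, ranged from 0.649 to 24.8 with a median of 4.02. The rule used the mean macrophage levels of both sets, and 318 transcripts met it in the 24h set against 39 for 7D. The effect of the rule on the direction between the sets was not tested. The p-values of members here and below do not allow for that choice. All transcripts together were not chosen this way, so their shares and median are no like-for-like measure for the members.

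**Figure D4:**
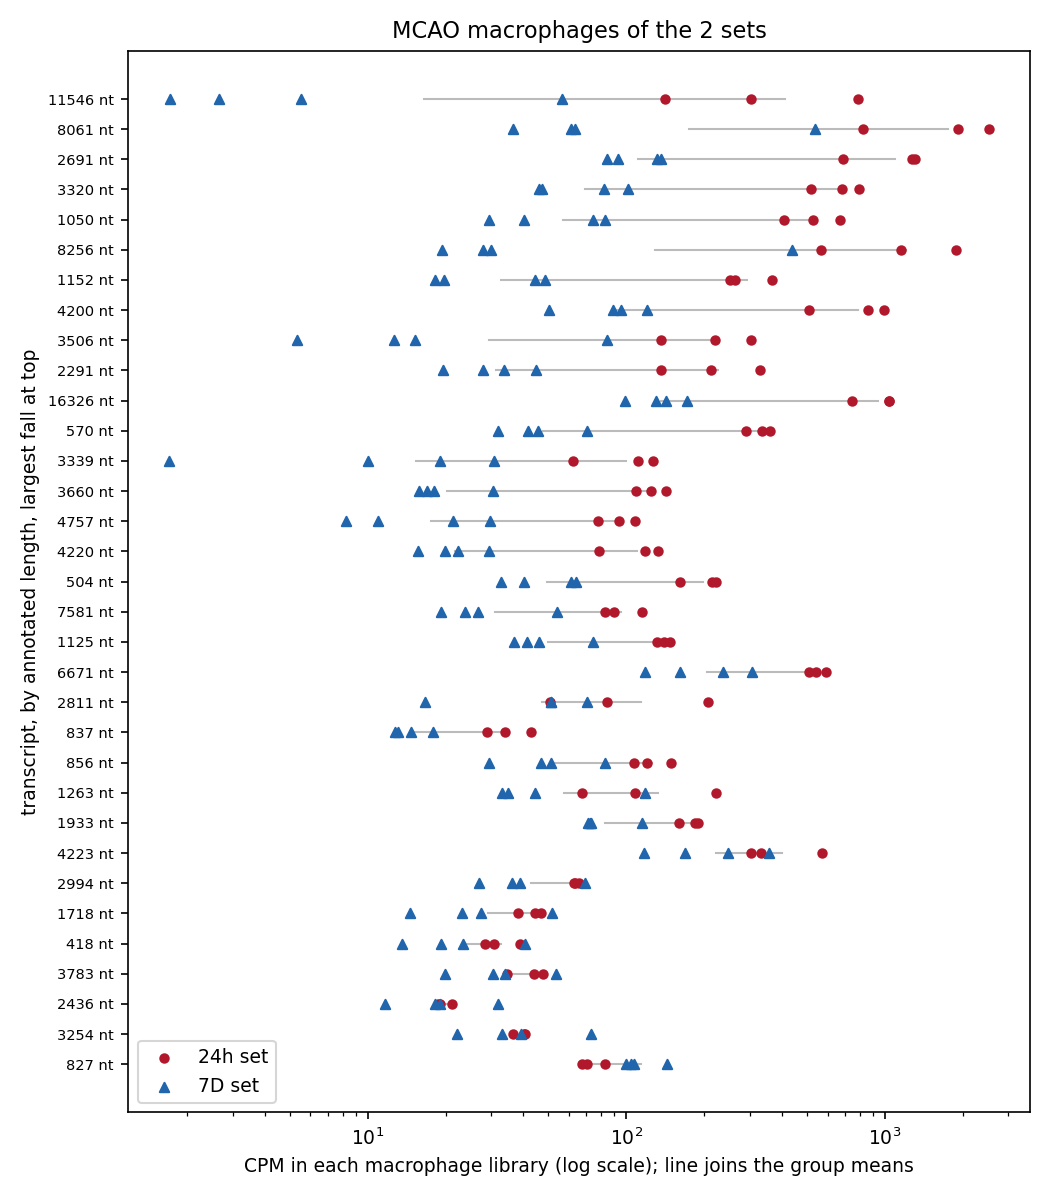
CPM of each transcript (rows, by length) in the 3 MO libraries of the 24h set (circles) and the 4 of the 7D set (triangles), on a log axis, with a line that joins the group means. Most rows have all triangles left of all circles, the 827 nt row at the bottom has them right of all circles, and in the 11546, 8061, 8256 and 3506 nt rows a single triangle lies far to the right of the other 3.

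The falls of ENSRNOT00000045532 (11546 nt) and ENSRNOT00000057585 (8061 nt) had the largest fitted values. The first was at 304, 141 and 790 CPM in 24h MO and 5.53, 2.67, 1.71 and 56.4 CPM in 7D MO (log2 -4.48, SE 0.884, edgeR adjusted p = 0.000499). The second was at 1910, 825 and 2523 CPM in 24h MO and 36.6, 60.9, 63.1 and 539 CPM in 7D MO (-3.19, SE 0.686, adjusted p = 0.00107). In both, 7D MO replicate 4 lay far above the other 7D libraries and below all 24h libraries. Without that library the log2 fold changes were -6.80 and -4.90, with -5.41 for the 8256 nt transcript (-3.08 with it), and without 24h MO replicate 3 the first was -3.59. The 2691 nt transcript fell with little spread, from 1306, 689 and 1277 CPM to 84.5, 132, 92.5 and 136 CPM (-3.17, SE 0.298, adjusted p = 2.31e-07). The falls of the 8061, 2691, 3320 (-3.13, SE 0.405) and 1050 nt (-3.10, SE 0.421) transcripts lay within their errors of each other.

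The transcript that rose was that of 827 nt. It was at 82.8, 67.6 and 70.6 CPM in 24h MO and 107, 143, 100 and 104 CPM in 7D MO (log2 0.75, SE 0.202, edgeR adjusted p = 0.00595). Sham microglia rose as well, from 2.17, 1.55 and 2.11 CPM to 16.3, 18.7, 20.1 and 13.1 CPM (3.21, SE 0.291, adjusted p = 1.45e-05). In Mg it was at 14.1, 6.41 and 10.3 CPM and then 10.1, 14.0, 15 and 13.8 CPM (0.42, adjusted p = 0.216). Its excess in stroke over sham microglia, log2 2.48 in the 24h set (SE 0.309, adjusted p = 0.000314), was -0.32 in the 7D set (adjusted p = 0.178), and that difference of -2.78 passed the test (SE 0.37, adjusted p = 0.000579).

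A further 9 members did not pass the test between the macrophage groups. Among them were the 3254 nt transcript (log2 0.23, SE 0.323, edgeR adjusted p = 0.611), the 2436 nt transcript (0.17, SE 0.357, adjusted p = 0.734), the 2994 nt transcript (-0.45, SE 0.251, adjusted p = 0.17) and the 418 nt transcript (-0.31, SE 0.578, adjusted p = 0.706). Those that miss the threshold are not shown to be equal. The call of the 856 nt transcript (-1.13, SE 0.441, adjusted p = 0.0476) was lost in 10 of 14 other settings.

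Microglia were compared between the sets in the same fit. From the 24h to the 7D set, 1 member was higher and 10 were lower in Mg, where 14.8% of 14252 transcripts were called, 7.87% higher and 6.93% lower. All 33 passed the low-count filter of that fit, but 29 did so with the Mg libraries alone, where 0 were higher and 10 lower. Of all 12686 transcripts tested there, 782 were higher and 665 lower. The 6671 nt transcript was the higher one (log2 1.47, SE 0.40, edgeR adjusted p = 0.0203), and this call was lost without Mg 24h replicate 2 or 3 or Mg 7D replicate 2 (adjusted p = 0.095, 0.08 and 0.063). The 4223 nt transcript fell by 4.07 on the log2 scale (SE 0.495, adjusted p = 7.26e-05) and the 856 nt transcript fell by 6.32 (SE 0.952, adjusted p = 0.000393, or 0.085 with limma-voom; -5.04 without Mg 24h replicate 1). In SH, 5 members were higher and 0 lower in the 7D set, where 2.71% were called, 1.67% higher and 1.04% lower. There 7 members had an unadjusted p under 0.05. The share over all transcripts was not computed for that limit, so nothing is read from this count. The count of 10 lower in Mg was 5 without Mg 24h replicate 1, where 699 of 14606 transcripts were lower. The 5 higher in sham microglia were the transcripts of 827, 2691, 4220, 4223 and 6671 nt. Leaving out any 1 of the 3 SH libraries of the 24h set left 2 members called.

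The ratios of macrophages to each microglia group chose the members, so their change between the sets is a description and nothing is read from it. MO over SH was smaller in the 7D set for 23 members and larger for 0 among those past edgeR's threshold, where 25% of 14252 transcripts were called, 12.4% higher and 12.6% lower. For MO over Mg, 3 were larger and 7 smaller, where 19.9% were called, 11.3% higher and 8.64% lower. With the replicate number as a block, which the 7D Mg and MO libraries share, these counts were 2 and 9. The count of 7 was 3 without the 2 disputed libraries, and 3 or 4 without any 1 of Mg 24h replicates 2 and 3, MO 24h replicates 1 and 3, Mg 7D replicates 1 and 2 and MO 7D replicate 3.

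On the scale of the rule (each mean plus 1), the 4223 nt transcript had a ratio of MO over Mg of 10.8 in the 24h set and 73.3 for 7D. Its ratio of MO over SH was 125 and 6.04. The 856 nt transcript had ratios over Mg of 15.2 and 49.7, and the 418 nt transcript of 10.4 and 23.7. For the 570 nt transcript MO over Mg was 41.2 and then 5.21. In MO that transcript fell from 360, 290 and 336 CPM to 41.7, 70.7, 31.8 and 45.6 CPM (log2 -2.66, SE 0.313, edgeR adjusted p = 2.55e-06). In Mg it was at 10.6, 5.07 and 5.38 CPM and then 13.0, 10.4, 6.09 and 3.70 CPM, which overlapped. The MO, Mg and SH contrasts of a set share libraries, so these ratios are not independent of each other.

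For the members, the 4 macrophage libraries of the 7D set differed from each other in 2 ways. Replicate 2 had the highest level of 24 of the 33 members, against 16.9% of the 7144 transcripts above the level minimum. The mean of these 4 libraries chose the members, while the 7144 transcripts did not have to meet the rule's ratios. Nothing is therefore read from this contrast. Replicate 4 stood far above the others for 4 members. The 11546 nt transcript was there 21.2 times, the 8256 nt transcript 15.7 times, the 8061 nt transcript 8.85 times and the 3506 nt transcript 6.69 times the median of the other 3. The 8256 nt transcript was at 19.4, 27.9, 30 and 438 CPM and the 3506 nt transcript at 12.6, 15.2, 5.33 and 84.4 CPM.

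**Figure D5:**
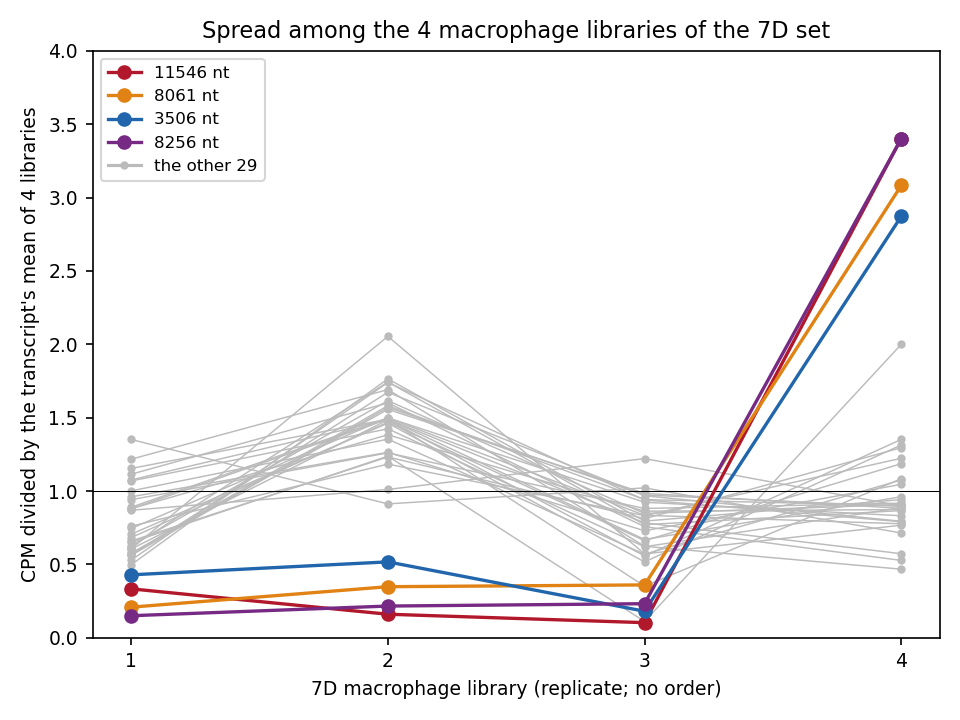
CPM of each of the 33 transcripts in the 4 MO libraries of the 7D set, divided by its mean over the 4, where lines join the values of a transcript and replicates have no order. Replicate 2 is highest for 24 transcripts, and the 4 coloured transcripts (11546, 8061, 3506 and 8256 nt) are highest in replicate 4 alone.

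Chi3l1 and Nos2 were high in the same library. Chi3l1 was at 4.45, 7.68, 7.78 and 33.9 CPM in 7D MO and Nos2 at 0, 1.16, 0.308 and 23.1 CPM. The part of this library's other differences in these values was not tested. Without replicate 4, 26 transcripts met the rule and 7 of the 33 did not, those of 504, 2811, 3339, 3506, 8061, 8256 and 11546 nt. Without replicate 2, 25 met it, 23 of them among the 33. Each of these 2 libraries thus decided part of the membership.

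Replicates also differed in the other groups. In the 24h set, Mg replicate 1 was the highest Mg library for 27 members, against 44.8% of the 7144 transcripts, and replicate 2 the lowest for 29, against 44.4%. The 24h MO replicate 2 was the lowest MO library for 26 members, against 33.2%. In the 7D set, Mg replicate 4 was the lowest for 20, against 16.7%, and SH replicate 3 the lowest for 21, against 42.5%. The means of these groups also entered the rule, whose ratios the 7144 transcripts did not have to meet, so nothing is read from these contrasts.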

How the data were processed

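Strand-specific libraries of polyadenylated RNA from sorted cells went through bcl2fastq, TopHat2 and RSEM with genome rn5, as the submitters' processing notes list (per the labels). The sources used here give no version. The authors deposited 1 table per library with expected counts (estimated reads per transcript), TPM and FPKM, per the file headers. The deposited FPKM was not used, and the deposited TPM only to compare levels between transcripts. Groups followed the titles. The lines named Chi3l1 and Nos2 have values displaced by 2 columns, were read accordingly and were left out of all fits and totals.

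CPM was computed from the expected counts of the 30404 identifiers. The test was edgeR's quasi-likelihood F-test on rounded counts (edgeR 4.0.16, R 4.3.3) with TMM scaling and filterByExpr (count 10, total 15, Benjamini-Hochberg adjustment over all transcripts tested, threshold 0.05). Comparisons within a set used its libraries, with the 3 groups sharing an estimate of the spread, and those between sets used all 21. Standard errors of log2 fold changes were derived from the F statistic and are approximate. The fits were tested on simulated data. Alternatives were DESeq2 1.42.0, its size factors, limma-voom (limma 3.58.1), other filters, fits on other libraries, each library left out and the replicate number as a block. A further alternative grouped the 2 disputed 24h libraries by the cell fraction field and all others by title. The fits of microglia against sham without macrophage libraries were chosen after seeing the data.

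The members and lists were chosen with earlier results of these data known. Identifiers were printed for the 2 members with the largest smallest ratio and the 2 with the largest fall between macrophage groups among those past the threshold whose libraries did not overlap. The other members, called by length, were singled out after their values were seen. Same-numbered libraries were taken as paired where every pair's deviations from group means correlated above 0.1 across transcripts. This held for 7D Mg and MO (r = 0.214 to 0.276 over 4 pairs) but not for 24h Mg and MO (0.0969 to 0.16 over 3 pairs, each Mg library best with its own number), Mg and SH (-0.0225 to 0.0229 in the 24h set, -0.0682 to 0.152 in the 7D set) or MO and SH (-0.0219 to 0.0372 and -0.0924 to 0.0956). Numbers between sets pair nothing, since each set has its own libraries. Counting precision follows the depth, and p-values measure the spread between libraries.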

Additional observations from a re-analysis of the deposited data

Results flagged for a closer look

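Groups of 4 libraries (33 members in 3 groups of the 7D set) numbered 99. In 12 of them a library lay further from the others than Dixon's 95% limit allows. The rule used the means of these groups and some members share reads, so no chance rate is set beside the flagged values. In 7D MO replicate 4 these were the 11546 nt transcript at 56.4 CPM, the 8061 nt transcript at 539 CPM, the 8256 nt transcript at 438 CPM and the 3506 nt transcript at 84.4 CPM, of which the 8061 nt and 8256 nt transcripts share reads. In 7D MO replicate 2 they were the 827 nt transcript at 143 CPM, the 1933 nt transcript at 115 CPM, the 3660 nt transcript at 30.4 CPM and the 1263 nt transcript at 118 CPM. The 1263 nt transcript also stood apart in 7D Mg replicate 2, at 32.3 CPM. In 7D SH, the 11546 nt transcript was at 5.02 CPM in replicate 1, the 504 nt transcript at 8.61 CPM in replicate 2 and the 1125 nt transcript at 13.0 CPM in replicate 3.

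For Mg over SH, the difference between the sets passed edgeR's interaction test in 7 members, among them the transcripts of 4223 nt (-8.15 on the log2 scale), 856 nt (-6.27, or -4.99 without Mg 24h replicate 1), 2691 nt (-4.95) and 827 nt (-2.78).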

How the results depend on the processing

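The 33 members became 61 with a minimum ratio of 3, 3 with a minimum ratio of 8, 41 with a minimum level of 5, 25 with one of 30, 39 with TMM scaling, 38 without the added 1 and 21 with group medians (19 of them members), and 25 to 39 with 1 library left out. Grouping the 2 disputed 24h libraries by the cell fraction field, with the 7D libraries kept by title, gave 0. That grouping also gave 8 members higher and 0 lower for Mg over SH in the 24h set (2163 and 1405 of all 13081 transcripts). For 7D over 24h MO it gave 0 higher and 0 lower (960 and 964 of 14252). Between sets, 0 members were higher in SH (17 of all transcripts), and 0 were higher and 30 lower in Mg (679 and 903). The interaction of Mg over SH had 3 lower (71 of all transcripts). That of MO over SH had 0 lower (6), and that of MO over Mg 0 higher and 0 lower (0 and 0). The same grouping reversed 5 values. Among them were log2 2.21, 2.31 and 1.94 for the 3254, 2994 and 1718 nt transcripts (Mg over SH, 24h set). The others were -2.03 for the 6671 nt transcript (Mg between sets) and 1.72 for the 570 nt transcript (MO over Mg, interaction). For the latter the grouping by title gave -2.955. The cause was not tested.

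With limma-voom, 1 member was higher in Mg than SH in the 7D set, where 3072 of 13384 transcripts were. In SH between sets 1 member was higher, where 121 of 14252 transcripts were. In Mg between sets 0 members were higher and 6 lower, where 1054 and 930 transcripts were. For the interaction of MO over Mg 1 member was higher, where 1433 transcripts were. With DESeq2, 2 members were higher in Mg between sets, where 1227 of 14252 transcripts were. For the interaction of Mg over SH 12 members were lower, where 483 transcripts were. Without the 2 disputed libraries 0 were higher in Mg between sets (648 of 14535 transcripts) and 3 were lower for MO over Mg (627). With only the 2 groups compared, 0 of the 29 members tested were higher in Mg between sets (782 of 12686 transcripts). With 1 library left out, 12 to 21 members were higher and 3 to 4 lower for Mg over SH in the 24h set, and 2 to 4 higher and 12 lower in the 7D set. Between sets, 1 was higher and 22 to 27 lower in MO, 2 to 5 higher in SH, and 0 to 1 higher and 5 to 12 lower in Mg. The macrophage interactions compare ratios that chose the members, so nothing is read from them. For the interactions, 6 to 13 were lower for Mg over SH and 17 to 24 lower for MO over SH. For MO over Mg, 2 to 3 were higher and 3 to 9 lower. Counts over all transcripts are not set beside these ranges, which show only how far the member counts depend on 1 library.

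With the replicate number as a block, Mg over SH had 17 members higher and 3 lower in the 24h set. Over all 13081 transcripts, 3207 were higher and 2689 lower there. In the 7D set 3 members were higher and 12 lower, where 3285 and 3333 of 13384 transcripts were. Mg and SH were not taken as paired in either set. The interaction of Mg over SH had 0 higher and 8 lower (135 and 314 of 14252 transcripts). That of MO over SH had 0 higher and 25 lower (1976 and 1896 transcripts). That of MO over Mg had 2 higher and 9 lower (1816 and 1442 transcripts). All 4 Mg libraries of the 7D set correlated best with the MO library of their own number. No block could be fitted for a cell group between sets. Members at few counts, such as the 856 and 418 nt transcripts in 7D Mg, are limited by depth.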
